A study of Mus musculus with 12 samples.

Results

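The genes described here carry out MHC antigen presentation, in pancreatic neuroendocrine tumors (PanNETs) of RIP1Tag2 mice. They are 10 mouse genes, looked up by symbol and Ensembl identifier among the 38924 genes of the deposited count tables. They comprise 5 class II genes (H2-Aa, H2-Ab1, H2-Eb1, Cd74 and Ciita) and 5 class I genes (H2-K1, H2-D1, B2m, Tap1 and Nlrc5). All 10 passed the filter on low counts, which left 16645 genes.

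RNA from 12 tumors was sequenced, 4 per group. The mice were on a C57Bl6 background and carried the RIP1Tag2 transgene, in which the rat insulin promoter drives the SV40 T antigen in pancreatic beta cells, so the controls bore the same transgene and the same tumor type. Control mice had been given saline, others sunitinib, an oral inhibitor of VEGF and PDGF receptors, and the rest rapamycin, an mTOR inhibitor, together with sunitinib (R+S). Dosing started at an age of 15.5 weeks and went on for 4 days. Tumors are named by the numbers in their labels: control tumors 1 to 4, sunitinib tumors 5, 6, 8 and 12, and R+S tumors 4, 5, 7 and 10. The label prefixes divide the tumors by treatment (1 prefix in the control group, 2 in the sunitinib group, 3 in the R+S group). The treatment groups have no prefix in common. Anything a prefix stands for (a mouse, a litter, a batch) cannot be told apart from treatment. Nothing in the labels says that the tumors of a group came from separate mice, so p-values measure only the spread between these tumors.

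MHC class I molecules consist of a heavy chain (encoded by H2-K1 and H2-D1 in these mice) and beta-2 microglobulin (B2m). They are made by nearly all nucleated cells and present peptides from the cytosol, which the TAP transporter carries into the endoplasmic reticulum, to CD8 T cells. Class II molecules consist of an alpha and a beta chain and present peptides from endosomes to CD4 T cells. They are made mainly by dendritic cells, macrophages and B cells, and by other cells after exposure to interferon gamma. The invariant chain (Cd74) occupies the class II groove until the endosome. Each class has its own coactivator of the NLR family, CIITA for class II and NLRC5 for class I, and both act through factors bound at the X and Y boxes of MHC promoters.

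The promoters are shown because the members of each class are known to share regulatory boxes. In the RefSeq promoter table (GRCm38.p6), 6 of the 10 genes were listed: H2-Aa, H2-Eb1, H2-K1, H2-D1, B2m and Tap1. H2-Ab1, Cd74, Ciita and Nlrc5 were not. The 170 bases before the start of 2 class II genes and 1 class I gene, all on chromosome 17, are printed 5′ to 3′ on the strand of the gene. Capitals mark a Y box (ATTGG, or CCAAT on the other strand) and, in H2-Eb1, an X box (the consensus of the X1 and X2 elements with at most 1 mismatch).
H2-Aa (chr17:34287824-34287993, minus strand): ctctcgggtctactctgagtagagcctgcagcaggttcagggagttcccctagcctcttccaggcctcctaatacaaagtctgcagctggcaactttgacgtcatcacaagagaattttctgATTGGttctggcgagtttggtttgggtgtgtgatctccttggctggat
H2-Eb1 (chr17:34305697-34305866, plus strand): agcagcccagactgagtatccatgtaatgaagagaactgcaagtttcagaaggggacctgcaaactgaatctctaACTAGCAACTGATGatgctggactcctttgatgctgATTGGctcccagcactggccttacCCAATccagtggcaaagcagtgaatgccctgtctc
H2-K1 (chr17:34000348-34000517, minus strand): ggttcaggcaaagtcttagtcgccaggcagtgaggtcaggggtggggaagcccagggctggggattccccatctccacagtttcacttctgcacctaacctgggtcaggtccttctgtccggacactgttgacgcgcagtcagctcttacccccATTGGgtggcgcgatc

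A Y box was found within 250 bases of the start in all 6 genes, as in 34.5% of the 27025 RefSeq promoters searched on both strands. The X box was found in H2-Eb1, H2-D1 and Tap1, each with 1 mismatch, against 1.65% of all promoters. No X box motif overlapped a Y box in these genes. With at most 1 mismatch allowed, an X box further from the consensus would be missed, so its absence elsewhere is not shown. The letters AANNGAAA, a core of interferon regulatory factor elements, occurred in H2-Aa, H2-K1, H2-D1 and B2m and in 21.6% of all promoters. In the printed window of H2-K1 this match lies on the other strand as TTTCACTT, between 90 and 83 bases before the start. Each motif was found in genes of both classes, and a match of letters is only a description.

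Most of the genes lie in the MHC itself. On GRCm38, with gene bounds from GENCODE M21, H2-K1 (chr17:33996017-34000347), Tap1 (chr17:34187553-34197225), H2-Ab1 (chr17:34257689-34269419), H2-Aa (chr17:34282744-34287823), H2-Eb1 (chr17:34305867-34316674) and H2-D1 (chr17:35262730-35267499) are on chromosome 17. The others are unlinked: Cd74 at chr18:60803848-60812652, Ciita at chr16:10480059-10528418, B2m at chr2:122147686-122153083 and Nlrc5 at chr8:94434356-94527272. Counts are of reads over the exons of a whole gene. Multiply aligned reads went uncounted, which bears on the class I heavy chains: 9.63% of the 50-base words of H2-K1 transcripts and 12.8% of those of H2-D1 also occur in another gene, so these levels are uncertain. The share was 0.488% for H2-Aa and 0.442% for Tap1, and 0% for the other 6 members. An antisense gene, Gm20513, overlaps the start of H2-Eb1. The libraries were stranded, and the strand setting used in counting is not given in the sources used here.

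The gene counts of a tumor summed to 31872342 at least and 44215054 at most. The insulin-secreting identity of the tissue was checked with 10 beta-cell genes, whose mean log2 CPM lay between 9.73 and 10.7 in 11 tumors. Sunitinib tumor 6 stood apart at 5.96, and Ins1 reached 338 CPM there against 3835 to 20927 CPM elsewhere. For the genes named here, a call that the removal of this tumor ended or added is therefore given both ways. This covers sunitinib against control and R+S against sunitinib only. R+S against control comes from the same fit but was not tested without this tumor, so its calls are unchecked in that respect. Pancreatic acinar genes moved with treatment: the mean log2 CPM of 14 acinar markers was -2.38 to 1.79 in control tumors, 8.36 to 10.2 in sunitinib tumors and 6.62 to 9.07 in R+S tumors. Of 10 endothelial markers, 9 fell with sunitinib and 9 with R+S. In R+S against sunitinib tumors 7 of the 10 were higher and 0 lower, beside 2.63% and 4.58% of all genes. Without sunitinib tumor 6, 6 were higher and 0 lower. The part of these shifts in the results was not tested.

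The class II genes fell together in sunitinib-treated tumors. All 5 passed the test, with levels 4.26 to 6.01-fold lower than in control tumors (4 tumors per group), whereas 0 of the 5 class I genes passed it. Over all genes tested, 4.48% were called, 2.55% lower and 1.93% higher with sunitinib. In R+S tumors the means of the class II genes lay between those of both other groups, with tumors that overlapped the control group for all 5 genes and the sunitinib group for 3, and the class I genes again stayed within their spread. The values below are normalized CPM, that is each count scaled to the library size of its tumor after TMM scaling, and log2 fold changes come from edgeR's quasi-likelihood test with Benjamini-Hochberg adjustment over the 16645 genes.

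H2-Aa encodes the alpha chain of the I-A class II molecule. Its level was 156, 103, 111 and 55.8 CPM in control tumors 1 to 4, 29.8, 25.6, 22.2 and 22.5 CPM in sunitinib tumors 5, 6, 8 and 12, and 37.4, 28.7, 45.4 and 82.9 CPM in R+S tumors 4, 5, 7 and 10. Every sunitinib tumor was below every control tumor, and R+S tumor 10 was above the lowest control tumor. The log2 fold change with sunitinib was -2.09 ± 0.35 (SE, adjusted p = 0.0044).

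H2-Ab1, the beta chain that pairs with H2-Aa, moved in the same direction. The control tumors had 100.3, 67.0, 64.2 and 37.2 CPM, the sunitinib tumors 16.8, 14.5, 10.3 and 10.7 CPM, and the R+S tumors 22.0, 16.6, 26.8 and 48.1 CPM. The lowest control tumor was above every sunitinib tumor but below 1 R+S tumor. With sunitinib the log2 fold change was -2.36 ± 0.36 (adjusted p = 0.0025).

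H2-Eb1 encodes the beta chain of the I-E molecule. C57Bl6 mice lack its partner, since their alpha chain gene H2-Ea is inactive, so the transcript has no protein partner at the surface. It was present at 111, 71.7, 75.4 and 37.3 CPM in control tumors, at 15.4, 14.1, 12.7 and 11.6 CPM in sunitinib tumors and at 23.9, 17.5, 28.3 and 53.4 CPM in R+S tumors. The sunitinib tumors lay below both other groups without overlap, and the log2 fold change against control tumors was -2.46 ± 0.37 (adjusted p = 0.0021). The inactive gene itself, H2-Ea-ps, had 9, 4, 1 and 0 reads in the control tumors and 0 reads in all 8 treated tumors, too few for a test.

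Cd74, the invariant chain that escorts class II molecules to the endosome, had the highest level of the class II genes in every tumor, per library and per kilobase of exon. It was measured at 255, 170.5, 178 and 100.5 CPM in control tumors, 45.7, 38.4, 36.2 and 32.6 CPM in sunitinib tumors and 74.3, 54.7, 82.6 and 157 CPM in R+S tumors. The sunitinib values were again below all others, and the log2 fold change was -2.20 ± 0.34 (adjusted p = 0.0023).

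Ciita, the class II coactivator, was the scarcest member. Its reads numbered 155, 69, 86 and 55 in control tumors, 28, 7, 10 and 9 in sunitinib tumors and 47, 27, 37 and 67 in R+S tumors. As normalized levels these were 3.32, 1.82, 2.18 and 1.55 CPM, then 0.715, 0.193, 0.264 and 0.289 CPM, then 1.30, 0.682, 1.01 and 1.66 CPM. Sunitinib tumor 5 was higher than the other sunitinib tumors, yet below every control tumor. The log2 fold change with sunitinib was -2.59 ± 0.46 (adjusted p = 0.0061). At such counts single tumors are imprecise, and the fold change moved between -3.13 and -2.33 as tumors were left out in turn.

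The order of tumors within a group was shared by the class II genes. Control tumor 1 was the highest control and control tumor 4 the lowest for all 5 genes, sunitinib tumor 5 was the highest of its group for all 5, and R+S tumors 10 and 5 were the highest and lowest of theirs. After removal of the group means, Pearson's r between pairs of class II genes over the 12 tumors ran from 0.679 to 0.996, with a median of 0.976 over 10 pairs. All pairs come from the same libraries, so this is a description. The CPM ratio of H2-Eb1 to H2-Ab1 stayed between 0.916 and 1.24 in the 12 tumors, and that of Cd74 to H2-Ab1 between 2.54 and 3.53.

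**Figure D1:**
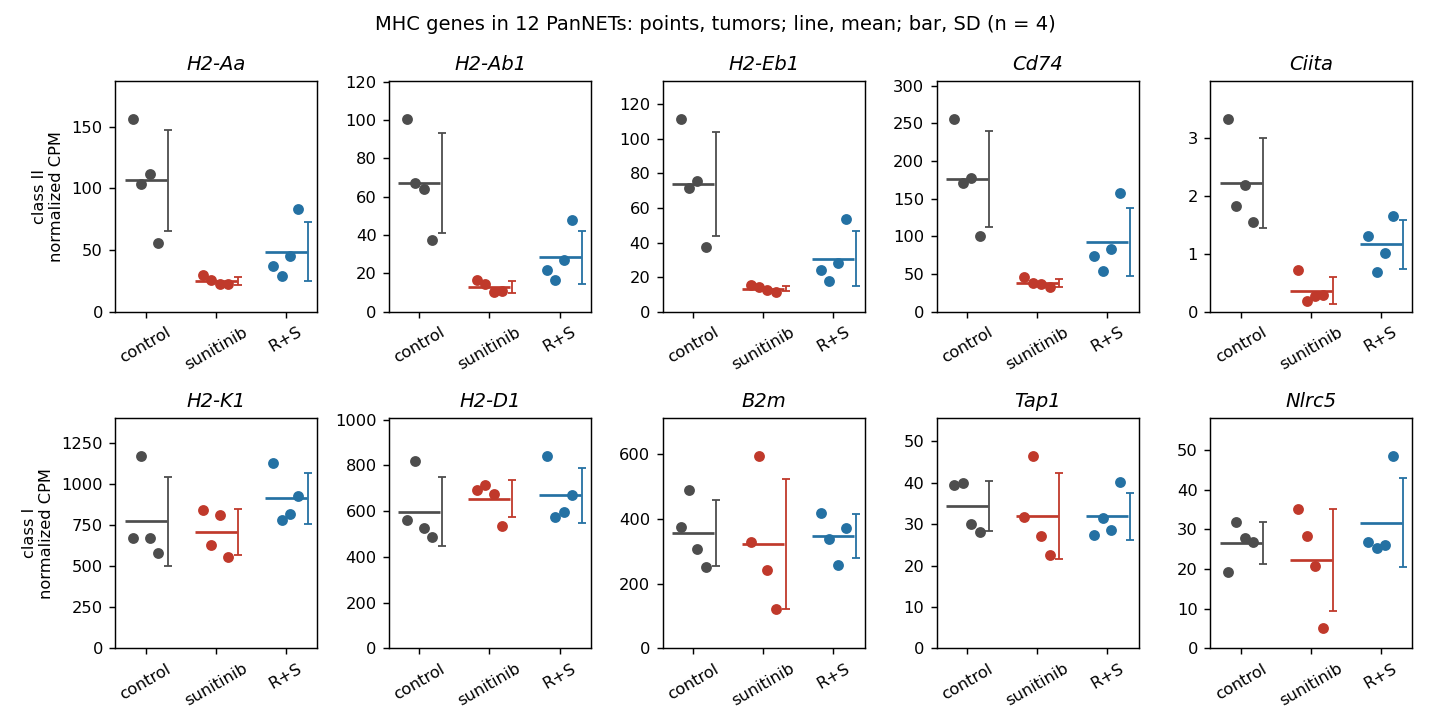
Normalized CPM (linear axis from 0) of the 10 MHC genes in each tumor, class II genes in the upper row and class I genes in the lower row. Points are tumors, lines the means and bars the SD (n = 4 per group). The sunitinib points of all 5 class II genes lie below every control point, whereas the 3 groups overlap for the class I genes.

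Against this the class I genes showed no shift past the test. H2-K1, a classical heavy chain, had 671, 1169, 671 and 578 CPM in control tumors, 840, 628, 814 and 555 CPM in sunitinib tumors and 1127, 783, 816 and 929 CPM in R+S tumors. Control tumor 2 was the highest of all 12, and the groups overlapped. The other classical heavy chain, H2-D1, had 559, 819, 527 and 487 CPM in control tumors, 691, 715, 675 and 534 CPM in sunitinib tumors and 840, 575, 597 and 670 CPM in R+S tumors. These ranges overlapped as well. With sunitinib the log2 fold change was -0.12 ± 0.23 for H2-K1 (adjusted p = 0.80) and 0.13 ± 0.19 for H2-D1 (adjusted p = 0.74).

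B2m, the light chain of class I molecules, was spread most widely in the sunitinib group. It had 373, 487, 308 and 250.01 CPM in control tumors, 329, 593, 243 and 121 CPM in sunitinib tumors and 419, 337, 256 and 372 CPM in R+S tumors. Both the highest and the lowest value of the 12 were sunitinib tumors, tumor 6 and tumor 12. Tap1, a subunit of the peptide transporter, had 39.4, 39.8, 30.1 and 28.2 CPM in control tumors, 31.8, 46.4, 27.0 and 22.4 CPM in sunitinib tumors and 27.4, 31.5, 28.5 and 40.1 CPM in R+S tumors. Its extremes were the same sunitinib tumors.

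Nlrc5, the class I coactivator, had 19.3, 31.9, 27.9 and 26.9 CPM in control tumors. The sunitinib tumors had 35.1, 28.4, 20.8 and 5.17 CPM, and the R+S tumors 26.8, 25.4, 26.2 and 48.4 CPM. Sunitinib tumor 12 was the lowest of all tumors and R+S tumor 10 the highest. For all 5 class I genes control tumor 2 was the highest control and sunitinib tumor 12 the lowest of its group. Their group-centred correlations were looser than in class II, from 0.243 to 0.910 with a median of 0.556 over 10 pairs.

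A p above the threshold does not show that class I was constant, so the intervals matter. The 95% intervals of the log2 fold change with sunitinib were -0.63 to 0.39 for H2-K1, -0.29 to 0.54 for H2-D1 and -0.59 to 0.38 for Tap1. They were wider for B2m, whose lower bound was -0.99, and for Nlrc5, whose lower bound was -1.21. The class II intervals had their upper bounds between -1.65 and -1.33 and did not reach those of any class I gene. The median log2 fold change was -2.36 for class II and -0.12 for class I, beside 0.03 over all genes. The exact permutation test of log2 CPM over 70 arrangements gave p = 0.0286 for each class II gene (two-sided), which is the smallest value that 4 tumors against 4 allow. Groups without overlap always give this smallest value, so their count is not separate support. With sunitinib lower, they were found for 5 of the 5 class II genes, 0 of the 5 class I genes and 5.76% of all genes. The members were chosen with earlier results of these data known.

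Without sunitinib tumor 6, the log2 fold changes of the class II genes were -2.10 for H2-Aa, -2.42 for H2-Ab1, -2.48 for H2-Eb1, -2.20 for Cd74 and -2.37 for Ciita, all past the test (highest adjusted p 0.0114, edgeR). Leaving out any other single tumor of these groups also kept all 5 past the test. Without tumor 6 the log2 fold change of B2m was -0.62 ± 0.32 (adjusted p = 0.31) and that of Tap1 -0.34 ± 0.19 (adjusted p = 0.34).

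**Figure D2:**
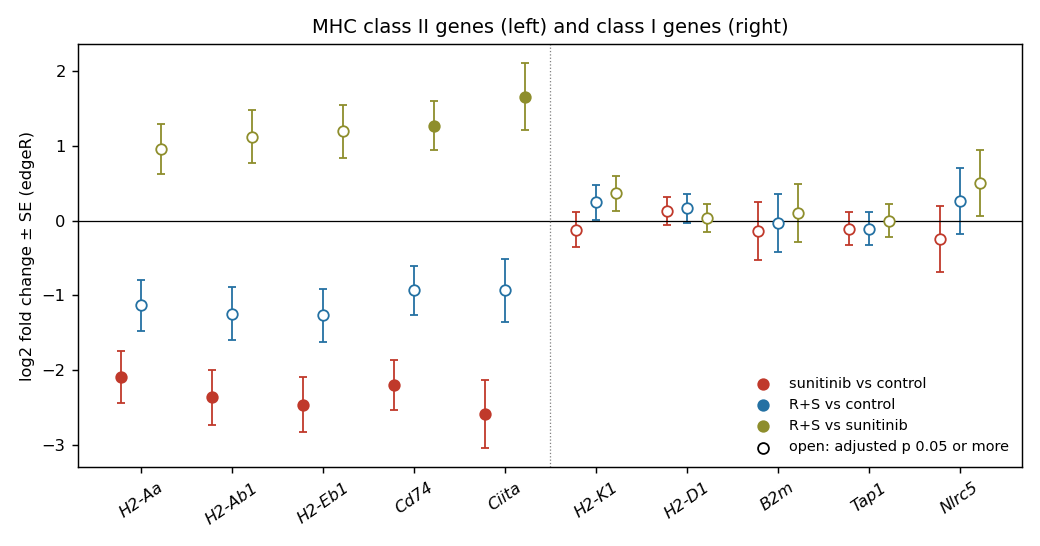
Log2 fold change with SE (edgeR) of the 10 MHC genes in the 3 comparisons, class II to the left of the dotted line and class I to the right. Filled points have an adjusted p under 0.05 and open points do not. Class II values with sunitinib lie between -2.59 and -2.09 and class I values between -0.25 and 0.13.

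The R+S group was given rapamycin on top of sunitinib. No group here had rapamycin alone. An altered response to sunitinib and an effect of rapamycin itself therefore cannot be told apart. Against control tumors the class II genes had lower means but did not pass the test: 0 of 10 members were called, where 4.16% of all genes were (2.61% lower, 1.55% higher). The log2 fold changes were -1.13 ± 0.34 for H2-Aa (adjusted p = 0.085), -1.24 ± 0.35 for H2-Ab1 (adjusted p = 0.070) and -1.26 ± 0.36 for H2-Eb1 (adjusted p = 0.069). Cd74 had -0.93 ± 0.32 (adjusted p = 0.14) and Ciita -0.93 ± 0.42 (adjusted p = 0.25). All 5 had an unadjusted p between 0.00408 and 0.0492. R+S tumor 10, the highest of its group for each of them, decided the call for 4 genes: without it H2-Aa, H2-Ab1, H2-Eb1 and Cd74 had log2 fold changes of -1.52, -1.62, -1.67 and -1.32 and adjusted p values of 0.0221, 0.0221, 0.0188 and 0.0277. Without control tumor 4, H2-Eb1 alone passed (adjusted p = 0.042). DESeq2 called 3 members, H2-Aa, H2-Ab1 and H2-Eb1. Class I log2 fold changes lay between -0.11 and 0.26.

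Against sunitinib alone the class II genes were higher in R+S tumors. Cd74 rose 2.41-fold (log2 1.27 ± 0.33, adjusted p = 0.042) and Ciita 3.15-fold (log2 1.66 ± 0.45, adjusted p = 0.048), which makes 2 of 10 members called, beside 7.21% of all genes (2.63% higher, 4.58% lower). H2-Aa, H2-Ab1 and H2-Eb1 had log2 fold changes of 0.96, 1.12 and 1.19 with adjusted p values of 0.091, 0.069 and 0.061. For Cd74 and H2-Eb1 every R+S tumor was above every sunitinib tumor, as for 8.9% of all genes, while the other 3 overlapped in 1 or more tumors. Both calls were fragile. Leaving out sunitinib tumor 6, 8 or 12, or any R+S tumor, ended both calls, with adjusted p values of up to 0.0941 for Cd74 and 0.105 for Ciita. Without sunitinib tumor 5, both passed and H2-Ab1 did too (adjusted p = 0.0497). Class I log2 fold changes lay between -0.00 and 0.50, and 0 passed. The R+S comparisons share their tumors with the sunitinib comparison, so they are not independent of it.

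Both classes can be set side by side within each tumor, where total depth and scaling cancel. The mean log2 CPM of the class I genes minus that of the class II genes was 1.23, 2.37, 1.75 and 2.41 in control tumors, 3.92, 4.55, 4.22 and 3.41 in sunitinib tumors, and 3.43, 3.69, 2.98 and 2.59 in R+S tumors. The group means were 1.94 ± 0.56, 4.02 ± 0.49 and 3.17 ± 0.49 (SD, n = 4), and both treated groups lay above all control tumors. The class II mean itself was 4.72 to 6.10 in control tumors, 2.99 to 3.61 in sunitinib tumors and 3.67 to 5.16 in R+S tumors. The class I mean was 7.13 to 7.82, 6.39 to 7.67 and 7.29 to 7.74.

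Per kilobase of exon, the order of levels in control tumors was B2m (412 CPM per kb), H2-K1 (263), H2-D1 (232), Cd74 (105), H2-Eb1 (38.0), H2-Aa (28.0), H2-Ab1 (26.2), Tap1 (6.27), Nlrc5 (3.12) and Ciita (0.233). H2-K1 and H2-D1 overlapped in their spread, as did the 3 class II chains. With sunitinib H2-D1 (254 CPM per kb) and H2-K1 (241) exchanged places within their spread. H2-Ab1 (5.08) came to lie below Tap1 (5.83), again within their spread, while Cd74 was at 22.8 CPM per kb. R+S tumors kept the control order, with Cd74 at 55.0 CPM per kb.

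Next to the class II chains stand the genes that load and edit their peptides. Of the 13 accessory genes listed, 11 could be tested: 4 fell and 1 rose with sunitinib, and their median log2 fold change was -1.13. H2-DMa and H2-DMb1 form the peptide exchanger H2-M, and H2-Ob is a chain of its inhibitor H2-O. H2-DMa fell with a log2 fold change of -1.13 (adjusted p = 0.0281), from 5.44 to 9.56 CPM in control tumors to 2.78 to 4.03 CPM in sunitinib tumors. H2-DMb1 fell by 1.85 on the log2 scale (adjusted p = 0.0154) and H2-Ob by 1.74 (adjusted p = 0.0137). H2-Ob was also lower in R+S than in control tumors (log2 -1.35, adjusted p = 0.0468). H2-DMb2, a close copy of H2-DMb1, fell by 2.78 (adjusted p = 0.0393) on 18 to 34 reads per control tumor and 0 to 8 reads per sunitinib tumor. The copies share 22.7% of the 50-base words of H2-DMb1, so their separate levels are uncertain. H2-Oa, the other chain of H2-O, had a log2 fold change of -1.57 and did not pass (adjusted p = 0.19).

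Among the endosomal enzymes listed (Ctss, Ctsl, Lgmn and Ifi30), Ctsl alone passed the test with sunitinib. Ctsl, cathepsin L, rose by a log2 fold change of 1.06 with sunitinib (adjusted p = 0.0411), from 103 to 185 CPM to 233 to 447 CPM, and was lower again in R+S than in sunitinib tumors (log2 -0.96, adjusted p = 0.048). Its highest value was that of sunitinib tumor 6. Cathepsin S, which trims the invariant chain in antigen-presenting cells, had a log2 fold change of -0.38 (Ctss, adjusted p = 0.42). March8, a membrane-bound ubiquitin ligase, was higher in R+S than in sunitinib tumors (log2 0.58, adjusted p = 0.0277). Without sunitinib tumor 6, 3 of the 11 accessory genes fell and 0 rose with sunitinib: H2-DMb2 and Ctsl had adjusted p values of 0.067 and 0.071. In R+S against sunitinib tumors Ctsl then had a log2 fold change of -0.74 (adjusted p = 0.068), and Ifi30 passed (log2 -1.17, adjusted p = 0.017).

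The class I counterpart, 12 genes for peptide supply and loading, had 0 genes called with sunitinib or with R+S against control tumors, and a median log2 fold change with sunitinib of -0.05. Without sunitinib tumor 6, 1 of the 12 fell with sunitinib: Psmb8, an immunoproteasome subunit, had a log2 fold change of -0.997 (adjusted p = 0.043), against 0.14 with that tumor (adjusted p = 0.91). Tap2, the partner of Tap1, had -0.08 ± 0.27, and tapasin (Tapbp) -0.01 ± 0.14. Psmb10, another immunoproteasome subunit, was lower in R+S than in sunitinib tumors (log2 -1.04, adjusted p = 0.049). Sunitinib tumor 6, at 40.7 CPM, was the highest for it, the other sunitinib tumors having 14.3 to 18.9 CPM, and without that tumor the log2 fold change was -0.62 (adjusted p = 0.042). The difference between accessory means of class I and class II was 2.52 to 3.06 in control tumors, 3.29 to 4.12 in sunitinib tumors and 2.97 to 3.48 in R+S tumors, in log2 CPM. Sunitinib tumors lay above all control tumors in this measure, which shares no gene with the 10 members. It comes from the same tumors, and its lists were chosen with earlier results known, so it is not independent.

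Class I-like and nonclassical heavy chains were mixed. Of 15 tested, 3 fell and 1 rose with sunitinib. Fcgrt, the neonatal Fc receptor, fell by 0.92 on the log2 scale with sunitinib (adjusted p = 0.0074) and by 0.96 with R+S (adjusted p = 0.0081). Hfe, a regulator of iron uptake, fell by 0.73 (adjusted p = 0.048), and H2-T24 by 1.43 (adjusted p = 0.038, and 0.064 without sunitinib tumor 6). Azgp1, a secreted protein with the class I fold, had 0 reads in every control tumor, 0.417 to 1.35 CPM in sunitinib tumors and 0.109 to 0.396 CPM in R+S tumors, and was called higher in both treated groups (adjusted p = 0.0011 and 0.0091). H2-T23, the ligand of inhibitory NK receptors, and Mr1, which presents metabolites to MAIT cells, were higher in R+S than in sunitinib tumors, with log2 fold changes of 0.90 (adjusted p = 0.031) and 1.08 (adjusted p = 0.033). Without sunitinib tumor 6, 4 of the 15 genes were higher in R+S than in sunitinib tumors, with H2-Q2 and H2-M3 added. The Q and T region genes share reads with each other: 34.5% of the words of H2-T22 and 32.9% of those of H2-T10 recur in other genes.

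The upstream regulators were measured as well. The 7 genes for the factors bound at the X and Y boxes (RFX, NF-Y and CREB1) had 0 calls in all 3 comparisons and a median log2 fold change of -0.15 with sunitinib. Rfx5 had -0.45 ± 0.21 (adjusted p = 0.26) and Rfxap 0.46 ± 0.15 (adjusted p = 0.11). Ciita, which these factors recruit, was 6.01-fold lower.

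Of 15 interferon gamma signaling genes tested, 2 fell with sunitinib and 0 rose, with a median log2 fold change of -0.36. The interferon-induced GTPase gene Iigp1 fell by 2.14 with sunitinib (adjusted p = 0.0020) and by 1.43 with R+S (adjusted p = 0.028), and the chemokine gene Cxcl9 fell by 2.33 with sunitinib (adjusted p = 0.029). Irf1, an interferon target that acts on class I promoters, had a log2 fold change of -0.05 with sunitinib (adjusted p = 0.93), which was -0.40 (adjusted p = 0.10) without sunitinib tumor 6. Ifng itself had 0 to 2 reads per tumor, which was not enough for a test at this depth. Without sunitinib tumor 6, 6 of the 15 genes fell with sunitinib. In that fit 3 were higher in R+S than in sunitinib tumors, Irf1 among them (log2 0.47, adjusted p = 0.043), against 0 with the tumor. List counts without this tumor have no share over all genes beside them. With single tumors left out, 440 to 902 genes were called for sunitinib against control. For R+S against sunitinib the number was 0 to 2861, so shares from all 12 tumors do not apply.

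**Figure D3:**
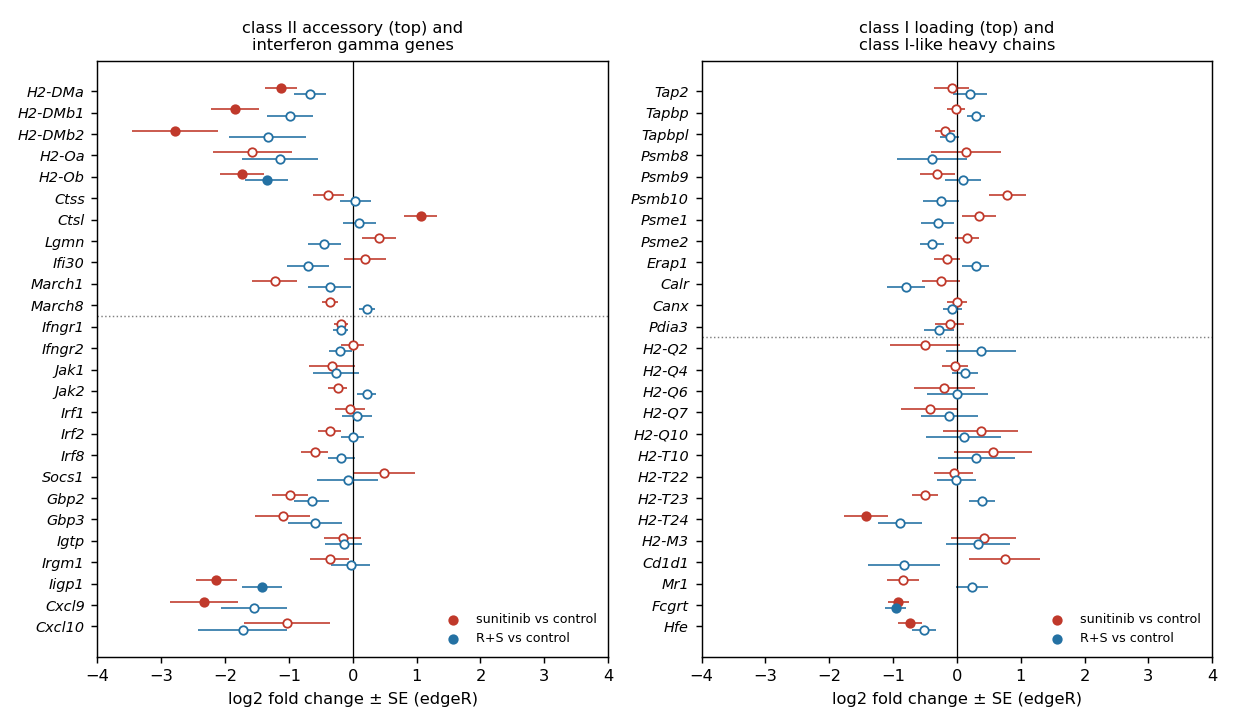
Log2 fold change with SE (edgeR) with sunitinib and with R+S, each against control tumors, for accessory class II and interferon gamma genes (left) and for class I loading and class I-like genes (right). Filled points have an adjusted p under 0.05. Azgp1, with 0 reads in all control tumors, is left out. H2-DMa, H2-DMb1, H2-DMb2 and H2-Ob are filled and left of 0 with sunitinib, and none of the class I loading genes is filled.

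Class II molecules are made mainly by leukocytes, and in bulk tumors fewer cells of a type and less RNA per cell cannot be told apart. Markers of those cells were therefore measured in the same tumors. Of 8 general leukocyte markers, 1 fell with sunitinib (Cd52, log2 -1.24, adjusted p = 0.024), and the median was -0.41. Ptprc, which encodes CD45, had a log2 fold change of -1.12 (adjusted p = 0.091). Their summed level was 137 to 177 CPM in control tumors, 67.7 to 138 CPM in sunitinib tumors and 104 to 169 CPM in R+S tumors. Of 12 macrophage markers, 3 fell (Adgre1, Mrc1 and Fcgr1, log2 -1.14, -1.91 and -1.41), with a median of -0.47 and summed levels of 658 to 928, 295 to 898 and 437 to 654 CPM. Sunitinib tumor 6 had the lowest summed level of all 12 tumors for both lists, and without it the medians were -0.29 for the leukocyte and -0.21 for the macrophage markers, with the same number of calls.

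Dendritic cell markers had a median of -0.84 over 8 tested genes, of which Flt3 (log2 -2.12, adjusted p = 0.037) and Clec9a (log2 -2.56, adjusted p = 0.015) fell. Their summed level was 88.3 to 104 CPM, 32.8 to 75.8 CPM and 71.2 to 96.3 CPM in the control, sunitinib and R+S groups. Dpp4 (48.1 to 68.2 CPM) and Itgax (22.2 to 31.4 CPM) made up most of this sum in control tumors. Flt3 and Clec9a were below 1 CPM in every tumor. The 1 tested marker with a positive log2 fold change (2.25) was Batf3. It had 11.9 CPM in sunitinib tumor 6, 0.408 to 1.25 CPM in the other sunitinib tumors and 0.536 to 1.05 CPM in control tumors. With that tumor left out, Batf3 had a log2 fold change of -0.02 and Itgax 0.08 (adjusted p = 0.98 and 0.85). The lowest sum was that of sunitinib tumor 6, where Dpp4 had 3.10 CPM. Without sunitinib tumor 6, Flt3 did not pass (log2 -2.07, adjusted p = 0.066) and Dpp4 did (log2 -0.67, adjusted p = 0.034). Flt3 rested on 15 to 38 reads per control tumor and 2 to 8 reads per sunitinib tumor. Of the B cell markers 4 could be tested, with a median of -1.19 and 0 called. Their summed levels were 11.8 to 23.5, 3.48 to 16.9 and 9.49 to 21.9 CPM. Most of the B cell sum was Cd22 in every tumor (9.67 CPM in control tumor 1, 2.18 CPM in sunitinib tumor 6). Of 9 T and NK cell markers 0 were called, and none of the listed immune markers was at 0 in all 12 tumors. In R+S tumors, Coro1a (leukocyte, log2 -0.84), Mrc1 (macrophage, -2.33) and Cd79b (B cell, -1.54) fell against control tumors. Cd86, a costimulatory ligand of antigen-presenting cells, fell by 1.56 with sunitinib (adjusted p = 0.0057) and had a log2 fold change of -0.96 in R+S against control tumors (adjusted p = 0.068).

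The class II mean was also set against the mean of each marker list within a tumor. Class II minus general leukocyte mean log2 CPM was 0.86 to 1.97 in control tumors, -0.67 to 0.31 in sunitinib tumors and 0.45 to 1.16 in R+S tumors. Against the macrophage mean it was -0.09 to 1.10, -1.69 to -0.51 and -0.46 to 0.48, and against the dendritic cell mean 3.57 to 4.37, 2.42 to 3.04 and 2.94 to 4.05. The sunitinib tumors lay below every control tumor in these 3 differences. The same held against the T and NK cell mean, at 5.04 to 5.66 in control and 2.92 to 3.59 in sunitinib tumors. It also held against the acinar mean, at 4.31 to 7.91 and -7.05 to -5.37, a list that itself rose with sunitinib. Against the B cell mean the groups overlapped, at 3.50 to 5.92 in control and 2.95 to 3.95 in sunitinib tumors. Against the beta-cell mean the groups overlapped as well, at -5.45 to -3.88 and -7.40 to -2.83. Against the endothelial mean they overlapped too, and the sunitinib group had the higher mean, 0.63 against -0.20. In R+S tumors the difference from the endothelial mean was 0.23 to 1.76, with a mean of 0.85. Ratios of Cd74 to single markers overlapped between control and sunitinib tumors: 2.93 to 9.39 and 1.79 to 5.82 for Ptprc, 0.908 to 1.93 and 0.208 to 1.16 for C1qa, 1.70 to 4.61 and 0.749 to 2.14 for Csf1r, and 238 to 403 and 224 to 509 for Flt3. The part of cell composition in the class II result was not tested.

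**Figure D4:**
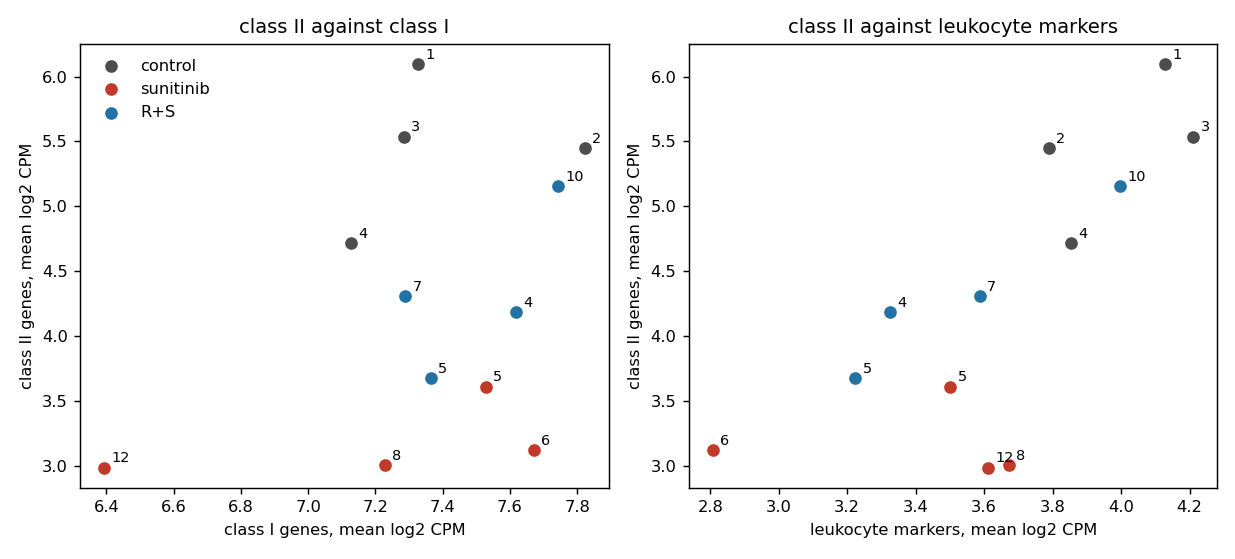
Mean log2 CPM of the 5 class II genes in each numbered tumor, against the mean of the 5 class I genes (left) and of 8 leukocyte markers (right). Colors are treatment groups. Sunitinib tumors lie at 2.99 to 3.61 on the class II axis and control tumors at 4.72 to 6.10, while class I means overlap at 6.39 to 7.67 and 7.13 to 7.82.

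The genes whose group-centred log2 CPM was most like the class II mean over the 12 tumors, among 13362 genes, were Gabbr2 (r = 0.891), Srgn (0.864), AW112010 (0.819), Lat2 (0.793) and Ccr2 (0.792). For the class I mean they were Serinc3 (0.950), Zswim6 (0.932), Snx10 (0.929), Paip2b (0.925) and Slc38a3 (0.906). Both lists were picked as the highest of many correlations.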

How the data were processed

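The authors deposited 1 table per tumor of raw read counts per Ensembl gene (TruSeq stranded mRNA libraries). The submitters' processing notes name cutadapt 1.2.1, TopHat2 2.0.9, HTSeq 0.5.4p3 and GRCm38. The 5 summary lines were left out. Multiple alignments numbered 21203479 to 48418780 per tumor. Reads on no gene came to 11.1% to 18.8% of a total without these multiple alignments. Symbols, coordinates and exon lengths came from GENCODE M21. Counts were tested with edgeR 4.0.16 (R 4.3.3): TMM, filterByExpr (minimum count 10, minimum total 15), robust quasi-likelihood F-test, all 12 tumors in 1 fit and 3 contrasts, with Benjamini-Hochberg adjustment and a threshold of 0.05. The SE is the absolute log2 fold change over the square root of F, and log2 CPM used a prior count of 2. The fit was tested on simulated data. The members and gene lists were chosen with earlier results of these data known. Named are the 10 members, every listed gene past the threshold in a comparison (at most 6 per list, by p) or else the 2 with the largest change, H2-Ea-ps, Ifng and Irf1, and the 5 genes most like each class mean with an average log2 CPM of at least 1. Tap2, Tapbp, Ctss, H2-Oa, Ptprc, Psmb8, Ifi30, Dpp4, Itgax, Batf3, Cd22, H2-Q2, H2-M3, C1qa and Csf1r were added after their values were seen. For beta, acinar, endothelial and T and NK cell lists, counts or levels are given in place of names. 1 listed gene is not reported here and was left out of its list. No replicates agreed within sampling noise. DESeq2 1.42.0, limma-voom (3.58.1), other scalings and filters, prefix sums and single tumors left out were tried; list counts without sunitinib tumor 6 were added after the data were seen.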

Additional observations from a re-analysis of the deposited data

Results flagged for a closer look

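Among 45 sets of 4 tumors (30 of them a member gene in a treatment group), 3 had a tumor whose gap to the nearest other exceeded Dixon's 95% critical value, a number that chance alone can give. H2-K1 in control tumor 2 was 1169 CPM, the other control tumors having 578 to 671 CPM. Nlrc5 in R+S tumor 10 was 48.4 CPM, with 25.4 to 26.8 CPM in the rest of the group. The beta-cell marker mean of sunitinib tumor 6 was 5.96 in log2 CPM, against 10.1 to 10.4 in the others.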

How the results depend on the processing

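The 5 class II genes fell with sunitinib under all alternatives, except that Ciita could not be tested where 10 counts were required in every tumor; the class I minus class II difference kept its group means within 1 SD. No paired analysis was possible, because the treatment groups have no label prefix in common and nothing says that equal tumor numbers mark a pair. The other counts moved. Genes called for sunitinib against control numbered 745, with 1477 by DESeq2, 408 with 10 counts in every tumor, 380 with only 8 tumors in the fit and 440 to 902 with single tumors left out (5 to 5 members). For R+S against control, 693 genes became 1688 by DESeq2, 2557 with 8 tumors and 292 to 621 with tumors left out, and 0 members became 3 by DESeq2 and 0 to 4 with tumors left out. For R+S against sunitinib, 1200 genes became 3045 by DESeq2, 501 without a filter, 3 with 8 tumors, 547 by limma-voom with the prefix as a random effect and 0 to 2861 with tumors left out; 2 members became 5 by DESeq2, 1 with 10 counts in every tumor, 0 to 3 with tumors left out, and 0 without a filter, with 8 tumors, with counts summed by prefix and by limma-voom. The cause was not tested. Class I log2 fold changes near 0 changed sign. Tap1 in R+S against sunitinib was 0.017 without a filter, 0.18 summed by prefix and 0.047 by limma-voom, and B2m in R+S against control was 0.030 summed by prefix. With tumors left out, sunitinib against control ranged from -0.24 to 0.15 for H2-K1, -0.62 to 0.13 for B2m, -0.34 to 0.027 for Tap1 and -0.54 to 0.082 for Nlrc5. R+S against control ranged from -0.17 to 0.16 for B2m and -0.021 to 0.36 for Nlrc5, and R+S against sunitinib from -0.14 to 0.23 for Tap1, -0.088 to 0.11 for H2-D1 and -0.16 to 0.58 for B2m. With 4 tumors per group and few reads, Ciita and H2-DMb2 remain imprecise.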
